A study of Mus musculus with 6 samples.

Results

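The 10 genes Pdgfra, Pdgfrb, Prrx1, Twist1, Thy1, Dcn, Lum, Vim, Fn1 and Postn, which are in general use as markers of mesenchymal cells, were described across dental epithelial organoids (DEOs) grown in 4 media. They were chosen by gene symbol, and all 10 were found once each among the 47360 gene symbols of the expression table. The organoids were grown from adult dental epithelial stem cells (aDESCs) of the apical buds of incisors from wild-type, 9-week-old female C57BL/6J mice, which were embedded in Matrigel and cultured for 14 days, and RNA was sequenced from 1 library per medium. All media contained 50% Wnt3a-conditioned medium, 5% R-spondin1-conditioned medium, EGF at 100 µg/ml, Noggin at 200 µg/ml, N-acetylcysteine at 1 mM and Y27632 at 10 µM, and this mixture alone is +N. The +ND medium additionally contained dibenzazepine (DBZ), an inhibitor of the protease that activates Notch receptors, at 10 µM by the labels. The +NF medium contained FGF10, a ligand that dental mesenchyme supplies to the epithelium, at 100 µg/ml, and the +NFD medium contained both. The media with Jagged1, +NJ and +NFJ, were not analysed here. The labels give the tissue as dental epithelium and the cells as primary epithelial cells, and do not state how many mice or wells went into a library.

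Mesenchymal cells lie between epithelia as loosely arranged fibroblasts and their relatives, and they secrete the collagens, proteoglycans and glycoproteins of connective tissue. In the tooth, the mesenchyme derives from the cranial neural crest, surrounds the epithelial bud and exchanges Fgf, Wnt, Bmp and Shh signals with it. Prrx1 and Twist1 encode transcription factors of this lineage, Pdgfra, Pdgfrb and Thy1 encode proteins of the cell surface, Vim encodes an intermediate filament, and Dcn, Lum, Fn1 and Postn encode secreted matrix proteins. None of the markers is exclusive to mesenchyme, since epithelial cells can express Vim, Fn1 and Postn in culture and in wounds.

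The values are FPKM, that is, fragments scaled to transcript length and library size by the authors, so that levels of different genes can be set side by side. Ratios between media are given either as the plain ratio of FPKM values (fold) or as log2((FPKM + 1)/(FPKM + 1)), which understates the differences of low genes. On the log2 scale a gene was counted at a 2-fold ratio, and counts cover genes that reached 1 FPKM in either library of a pair. Since each medium has 1 library, differences could not be set against replicates, and p-values are not given. The intervals are approximate 95% counting intervals from the fragments that each value represents, and they do not cover the variation between cultures. By the smallest steps between low values, the libraries held about 27.3 × 10⁶ fragments in +N, 21.7 × 10⁶ in +ND, 28.5 × 10⁶ in +NF and 28.8 × 10⁶ in +NFD.

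Of the 10 marker genes, 9 had their highest FPKM in +NFD, against 32.6% of all 13748 genes that reached an FPKM of 1. Fn1 had its highest value in +N, against 16.2% of genes, and 0 markers had it in +ND or +NF, against 30% and 21.2%. Relative to +N, 8 of the 10 markers exceeded a 2-fold ratio in +NFD and 0 were lower to that extent, against 5.85% and 4.03% of all genes tested. The median log2 ratio of the markers was 1.64, and that of all genes was 0.18. Of the 10, Pdgfra, Twist1 and Thy1 were below 1 FPKM in +N and passed the filter through +NFD. Centring on the median of all genes left 6 of the 8, since the log2 ratios of Twist1 and Postn became 0.90 and 0.86. In +ND, 9 markers passed the filter, 1 reached a 2-fold ratio above +N and 0 one below it, against 5.88% and 5.29% of genes. With a pseudocount of 0.1, or none, 4 reached it, but the share of all genes at these settings was not counted. Of the 4, Pdgfra and Thy1 were below 1 FPKM in +N and passed the filter through +ND. The log2 ratios of the markers in +ND had a median of 0.47, and those of all genes one of 0.10. Over the 6 markers that reached 5 FPKM this median was 0.10, as was that of all genes. In +NF, 9 markers passed, 0 reached the 2-fold ratio above +N and 1, Lum, did so below it, against 2.76% and 2.44% of genes. Their median log2 ratio in +NF was -0.39, while that of all genes was 0.12. The summed FPKM of the 10 markers was 147 (+N), 157 (+ND), 95.8 (+NF) and 363 (+NFD), and Postn made up most of it. In RNA from whole organoids, fewer cells of a type and less RNA per cell cannot be told apart.

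**Figure D1:**
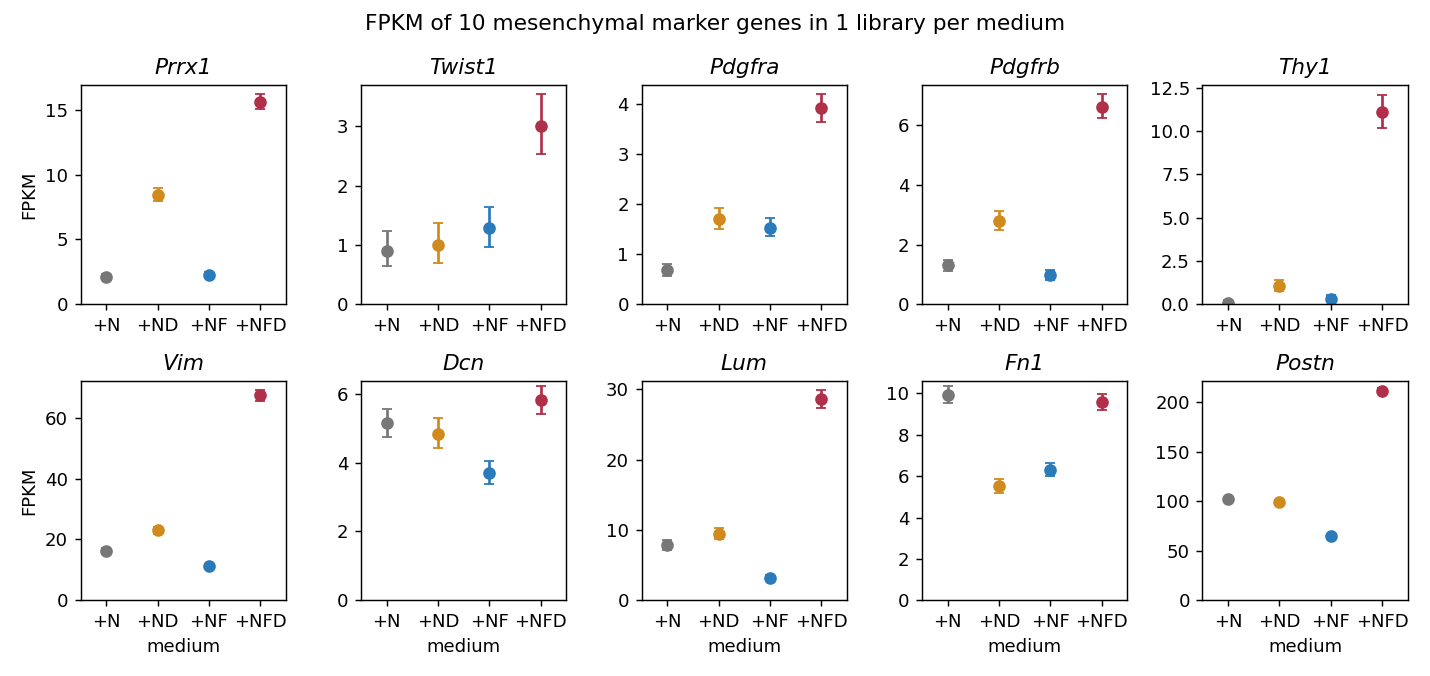
FPKM (linear axes from 0, with a separate scale for each gene) of the 10 marker genes in the single library of each medium; points are the deposited values and bars are approximate 95% counting intervals. The point for +NFD is the highest for all genes except Fn1, and Thy1 is near 0 in +N (0.0769 FPKM) and at 11.1 FPKM in +NFD.

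Of the transcription factors, Prrx1 encodes a homeodomain protein of craniofacial and limb mesenchyme and is located on the minus strand of chromosome 1, from 163245119 to 163313710 (GRCm38, as are the other positions). It was at 2.08 (+N), 8.46 (+ND), 2.23 (+NF) and 15.6 FPKM (+NFD). The values with DBZ were above both values without it. Prrx1 was 4.06-fold higher in +ND than in +N (counting interval 3.61 to 4.58) and 7.003-fold higher in +NFD than in +NF (6.31 to 7.77), while the intervals of +N and +NF overlapped. On the log2 scale Prrx1 alone reached the 2-fold ratio in +ND, at 1.62. By the plain ratio of FPKM 4 markers did, namely Thy1 (13.5-fold), Prrx1, Pdgfra (2.51-fold) and Pdgfrb (2.15-fold). The share of all genes by the plain ratio was not counted, and Thy1 and Pdgfra passed the filter through +ND alone.

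Twist1 encodes a basic helix-loop-helix factor of cranial mesenchyme, and lies on chromosome 12 from 33957671 to 33959817. Its FPKM was 0.896 (+N), 0.995 (+ND), 1.28 (+NF) and 3.01 (+NFD). It had the lowest FPKM of the 10 markers in +NFD, and its value in +N represents about 39.8 fragments. The intervals of +N, +ND and +NF overlapped, and +NFD was 3.36-fold higher than +N (2.34 to 4.88). Prrx1 was 2.32 times the level of Twist1 in +N and 5.198 times in +NFD on the FPKM scale.

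For the receptors, Pdgfra encodes the receptor to which PDGF-A binds and lies on chromosome 5 from 75152292 to 75198215. It was at 0.675 (+N), 1.70 (+ND), 1.53 (+NF) and 3.91 FPKM (+NFD). It was the lowest in the medium without either factor, intermediate and with overlapping intervals in the 2 media with a single factor, and highest with both. The antisense genes, Gm42802 and Gm42803, share exon positions with Pdgfra and were between 0 and 0.152 FPKM. Pdgfrb, on chromosome 18, encodes the receptor for PDGF-B on pericytes and fibroblasts and was at 1.30 (+N), 2.79 (+ND), 0.965 (+NF) and 6.63 FPKM (+NFD). Its value was thus lowest in +NF and highest in +NFD, which was 6.87-fold above +NF (5.78 to 8.22). The ratio of Pdgfrb to Pdgfra was 1.92 in +N, 1.64 in +ND and 1.70 in +NFD, but 0.632 in +NF.

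Thy1 encodes a glycosylphosphatidylinositol-anchored surface protein (CD90) of fibroblasts, neurons and T cells, and lies on chromosome 9 from 44043384 to 44048579. It was at 0.0769 (+N), 1.04 (+ND), 0.325 (+NF) and 11.1 FPKM (+NFD). The value in +N represents about 3.64 fragments with the longest transcript of 1735 nt, and that in +NFD about 554. Thy1 was 144-fold higher in +NFD than in +N, with a wide counting interval of 51.0 to 484. It was 10.7-fold higher in +NFD than in +ND (7.74 to 15.2) and 34.1-fold higher than in +NF (20.9 to 60.4). It had the widest range of the 10 markers across the media, and it failed the filter on low values in +NF relative to +N. In the comparisons of +ND and +NFD with +N, and of +NFD with +NF, it passed through the library in which it was higher alone.

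Vim encodes vimentin, the intermediate filament of mesenchymal cells, and lies on chromosome 2 from 13573927 to 13582826. It was at 16.3 (+N), 23.0 (+ND), 11.3 (+NF) and 67.5 FPKM (+NFD). All 4 intervals were separate, and +NFD was 4.14-fold above +N (3.89 to 4.40) and 5.97-fold above +NF (5.573 to 6.405). Cdh1, which encodes E-cadherin of epithelial junctions, was at 163, 68.0, 120 and 74.7 FPKM (+N, +ND, +NF and +NFD, respectively). The ratio of Vim to Cdh1 was 0.1001 (+N), 0.339 (+ND), 0.0939 (+NF) and 0.903 (+NFD), so that the FPKM of both were of like size in +NFD alone.

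Of the matrix genes, Postn encodes periostin, a matricellular protein of periodontal ligament and periosteum, and lies on chromosome 3 from 54361109 to 54391037. It was the most abundant of the 10 markers in every library, at 103 (+N), 99.3 (+ND), 65.1 (+NF) and 212 FPKM (+NFD). Its level in +N was above that of 95.7% of the genes above 0, and in +NFD above that of 98.0%. Postn was 1.58-fold lower in +NF than in +N and 2.06-fold higher in +NFD than in +N, while +ND was within 1.03-fold of +N.

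Dcn and Lum encode decorin and lumican, which are small leucine-rich proteoglycans that bind collagen fibrils. They are neighbours on chromosome 10, Dcn from 97479500 to 97518162 and Lum from 97565501 to 97572703, with a gap of 47338 bp in which the annotation has 0 genes. Dcn was at 5.15 (+N), 4.84 (+ND), 3.70 (+NF) and 5.82 FPKM (+NFD). Lum was at 7.85 (+N), 9.45 (+ND), 3.15 (+NF) and 28.6 FPKM (+NFD). The neighbours thus had unequal ranges, the highest value being 1.57 times the lowest for Dcn and 9.08 times for Lum. Both were lowest in +NF, and the ratio of Lum to Dcn was 1.53 (+N), 1.95 (+ND), 0.850 (+NF) and 4.91 (+NFD). The log2 ratio of Dcn in +NFD relative to +N was 0.15, and became -0.03 when ratios were centred on the median of all genes.

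Fn1 encodes fibronectin, the glycoprotein to which integrins attach cells, and lies on chromosome 1 from 71585520 to 71653200. It was at 9.93 (+N), 5.51 (+ND), 6.30 (+NF) and 9.59 FPKM (+NFD). Fn1 was thus lower in each medium with a single factor, 1.80-fold in +ND and 1.57-fold in +NF, and the intervals of +N and +NFD overlapped. Of the markers, Fn1 alone was at its lowest in +ND, against 31.7% of all genes, and 0 were at their lowest in +NFD, against 11.4%. Apol7d, which shares exon positions with Fn1 on the opposite strand, was between 0 and 0.419 FPKM. Fn1 and Dcn were the 2 markers under the 2-fold ratio in +NFD relative to +N.

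**Figure D2:**
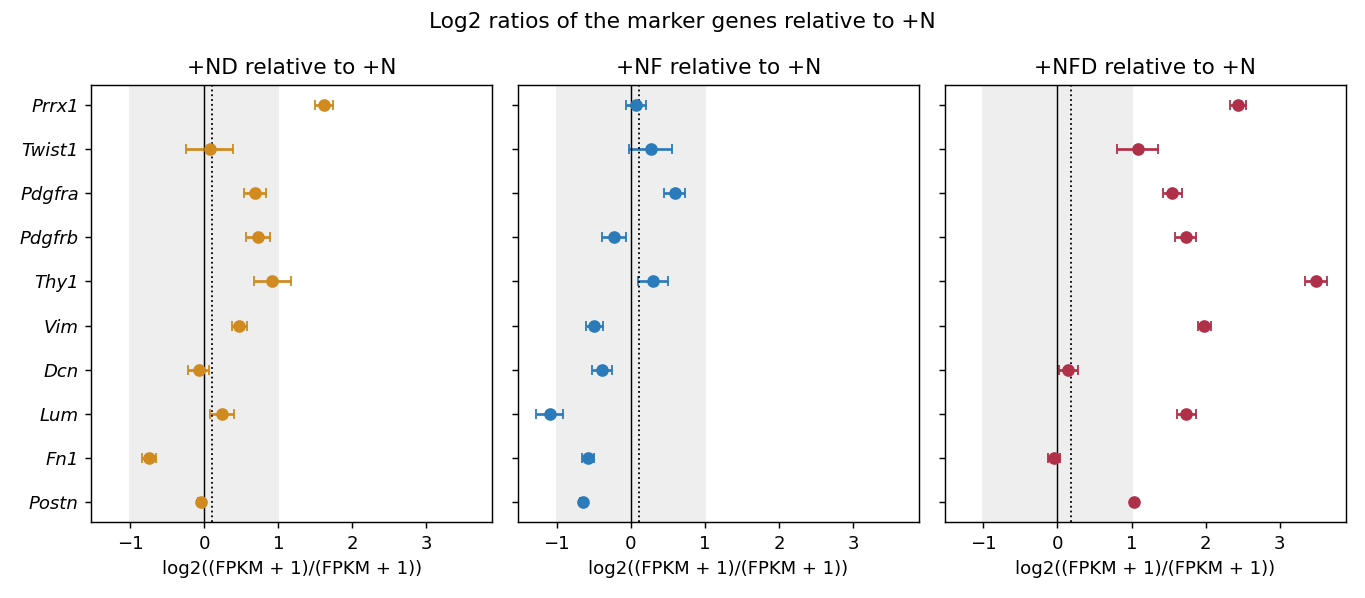
Log2((FPKM + 1)/(FPKM + 1)) of the 10 marker genes in +ND, +NF and +NFD, each relative to the same +N library; bars are approximate 95% counting intervals, the grey band spans ratios under 2-fold and the dotted line is the median of all genes tested. In +NFD 8 genes lie to the right of the band, in +ND Prrx1 does, and in +NF Lum lies to its left.

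Sequences upstream of the transcription start were read from RefSeq promoters on GRCm38.p6, in which 5 of the 10 markers had an entry (6 windows, since Postn has 2 starts). The windows of 250 bases before each start were searched for motifs. Sequences are shown for Prrx1 and Postn, which were above 10 FPKM and at least 2-fold higher than +N in +NFD, each on its own coding strand, with matches on either strand to the TATA box (TATAAA), the CCAAT box and the homeodomain core (TAATTA) in capitals. The RefSeq starts do not all match the first bases of the genes in the table. The start of Postn that is used here lies 2 bases upstream of the gene, that of Prrx1 60 bases inside it and that of Vim 384 bases inside it. The window of Vim therefore lies wholly within the gene and is not printed, and that of Prrx1 is printed without its last 60 bases. The printed sequences are chr1:163313711-163313900 (minus strand) for Prrx1 and chr3:54360857-54361106 (plus strand) for Postn.
Prrx1: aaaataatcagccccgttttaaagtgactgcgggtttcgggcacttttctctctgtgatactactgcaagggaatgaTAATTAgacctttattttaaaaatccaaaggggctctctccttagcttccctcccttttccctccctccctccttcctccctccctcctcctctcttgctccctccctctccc
Postn: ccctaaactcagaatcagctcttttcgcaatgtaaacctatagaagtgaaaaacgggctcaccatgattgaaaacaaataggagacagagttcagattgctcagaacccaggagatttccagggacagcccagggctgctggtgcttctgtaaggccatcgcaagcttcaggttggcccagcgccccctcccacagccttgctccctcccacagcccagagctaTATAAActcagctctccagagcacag
A TATAAA match, the letters of a TATA box, ended at -27 before the RefSeq start in Vim and at -21 in Postn, and was also found in Twist1 from -126 to -121. TATAAA was in 3 of the 6 windows, against 12.4% of 32851 windows of the same length, and CCAAT was in 2, in Vim and Twist1, against 33.8%. TAATTA, a core recognised by many homeodomain proteins, was in Prrx1 alone, from -173 to -168, against 4.84% of windows. TGGGAA, the core letters of sites bound by RBPJ, through which Notch acts, was in 0 of the 6 windows against 21.6%. TGANTCA, the letters of an AP-1 site, was in 0 against 6.75%, and CANNTG, the E-box bound by factors such as Twist1, was in 1, that of Pdgfra, against 66.2%. Both strands were searched, and no matches of different motifs overlapped. A match of letters is a description of the window and not evidence of binding.

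The factors were then compared pairwise in media that share no library, DBZ being added without FGF10 (+ND relative to +N) and with it (+NFD relative to +NF). In +NFD relative to +NF, all 10 markers were higher, against 57.2% of genes. Of the markers, 6 were higher by 2-fold or more and 0 lower by as much, against 3.72% and 2.69% of genes. Among the 6, Pdgfrb (0.965 FPKM in +NF) and Thy1 (0.325) passed the filter through +NFD alone. The median log2 ratio of the markers was 1.82 with FGF10 present, against the 0.47 given above without it, and that of all genes was 0.05. Lum had a log2 ratio of 0.24 with DBZ in the absence of FGF10 and of 2.83 in its presence. For Vim the values were 0.47 and 2.48, for Thy1 0.92 and 3.19, for Postn -0.05 and 1.69, and for Pdgfrb 0.72 and 1.96. Without a pseudocount those of Thy1 were 3.75 and 5.09, a narrower gap. Pdgfra had the most even ratios, 0.69 without FGF10 and 0.96 with it. For Dcn they were -0.07 and 0.54, for Fn1 -0.75 and 0.54, for Twist1 0.07 and 0.82, and for Prrx1 1.62 and 2.36. The difference between the ratios was above 0 for all 10 markers, as it was for 6608 of all 13748 genes. It was at least 1 for 6 markers, against 3.8% of all genes, and at most -1 for 0, against 4.26%. Its median was 1.26 for the markers and -0.02 for all genes. These differences rest on 4 single libraries and were not tested.

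**Figure D3:**
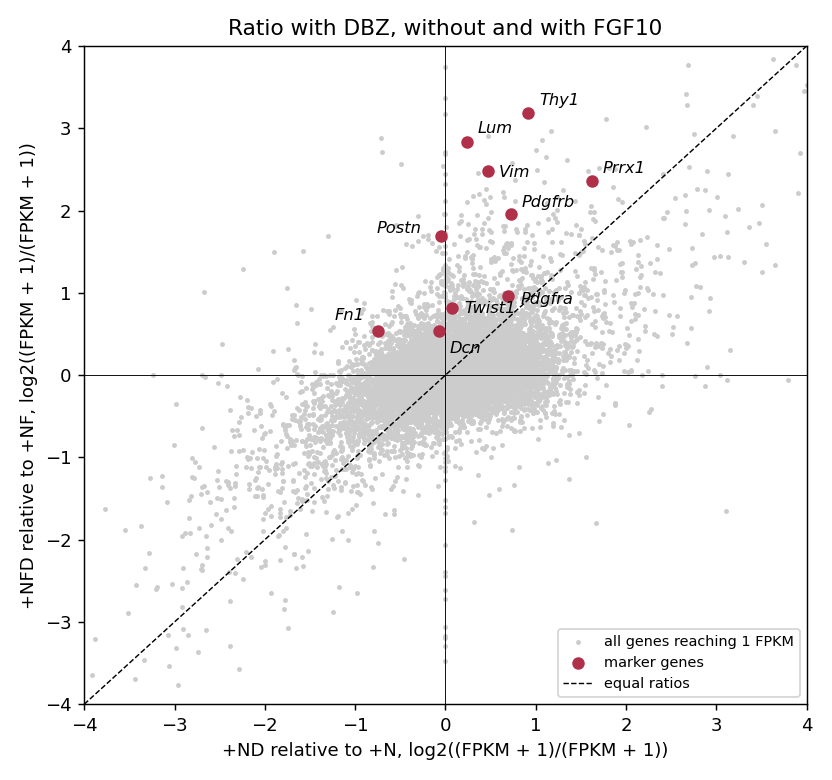
Log2((FPKM + 1)/(FPKM + 1)) with DBZ in the absence of FGF10 (+ND relative to +N, horizontal axis) and in its presence (+NFD relative to +NF, vertical axis) for the 10 marker genes and for all 13748 genes that reached an FPKM of 1, of which 122 lie beyond the axes. All markers lie above the dashed line of equal ratios, Pdgfra nearest to it and Lum and Thy1 farthest.

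For FGF10, the pairs are +NF relative to +N without DBZ, and +NFD relative to +ND with it. With DBZ present, all 10 markers were higher with FGF10, against 59% of genes, and 6 reached 2-fold, against 3.39% of genes, while 0 were lower by as much, against 3.11%. Among the 6, Twist1 (0.995 FPKM in +ND) passed the filter through +NFD alone. The median log2 ratio of the markers was 1.01, and that of all genes was 0.09. Without DBZ, 6 of the 9 markers that passed the filter were lower with FGF10, against 34.3% of all genes. Lum was at -1.09 without DBZ and 1.5 with it, Vim at -0.49 and 1.51, and Postn at -0.65 and 1.08. Of the 6 ratios that were at least 2-fold in +NFD relative to +ND, those of Pdgfrb and Twist1, both 1.01, were near the limit, and centring on the median of all genes left 3. The markers were lowest in +NF for 5 genes (Pdgfrb, Dcn, Lum, Vim and Postn), or 5 of 10 against 15.2% of all genes, and lowest in +N for 4 (Pdgfra, Prrx1, Twist1 and Thy1), against 41.8%.

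The markers differed among themselves in profile. The profile of a gene was taken as its log2(FPKM + 1) in the 4 libraries, less their mean, and the distance between profiles as the Euclidean distance over these 4 values. Pdgfrb and Vim were the nearest pair among the markers, at 0.42, and Lum was 0.43 from Vim. Dcn and Fn1 were nearest to each other, at 0.50, and so were Pdgfra and Twist1, at 0.45. The farthest pair was Thy1 and Fn1, at 2.61. Among 10459 other genes that reached an FPKM of 5, the 5 nearest to the mean profile of the markers were Emilin1, Gm28063, Colec12, Hand2 and Mmp23, at distances from 0.12 to 0.23. All 5 reached 5 FPKM in +NFD alone, the library in which the mean profile is highest. Emilin1, which encodes a glycoprotein of elastic fibres, was at 1.95 (+N), 2.89 (+ND), 1.32 (+NF) and 6.96 FPKM (+NFD). Hand2, a transcription factor of jaw mesenchyme, had FPKM of 1.22, 1.82, 0.578 and 5.06 in that order of media. Gm28063 lies within the positions of Hand2 in the table, from 57320987 to 57324233 on chromosome 8, and their fragments cannot be told apart. Colec12, which encodes a scavenger receptor, was at 8.06 FPKM in +NFD and at most 3.33 in the other media, and Mmp23, a metalloproteinase gene, was at 5.94 and at most 1.76. Likeness over 4 libraries describes these libraries only.

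Other genes of connective tissue were taken from lists written for this purpose. Of all genes tested relative to +N, 5.85% were higher and 4.03% lower by 2-fold or more in +NFD. These shares were 5.88% and 5.29% in +ND, and 2.76% and 2.44% in +NF. They belong beside the 2-fold counts of every list below, and a count of 1 in a short list says little beside them. Of 28 fibroblast matrix genes, 23 passed the filter in +NFD relative to +N, and 16 of these were higher by 2-fold or more, 0 lower, around a median log2 ratio of 1.19. Of the 23, 5 were below 1 FPKM in +N and passed through +NFD, and 4 of these are among the 16. For +ND the counts were 5 and 1 of 20, around a median of 0.51, and for +NF 0 and 1 of 18, around a median of 0.15. Without the filter the medians over all 28 genes were 1.03 in +NFD, 0.21 in +ND and -0.02 in +NF. Col6a1, which encodes a chain of type VI collagen, was at 1.44 (+N), 5.17 (+ND), 2.49 (+NF) and 20.4 FPKM (+NFD). Col3a1, a fibrillar collagen gene of soft connective tissue, had FPKM of 20.8, 12.3, 6.81 and 56.7 in that order of media, with the lowest value in +NF as for Lum. Bgn, which encodes the proteoglycan biglycan, was at 26.9, 58.4, 21.5 and 114 FPKM, and Mmp2, a gelatinase gene, at 12.3, 25.8, 10.9 and 65.9. In the opposite direction Col5a2, a fibrillar collagen gene, was at 28.9 FPKM in +N and at most 25.2 in the other media. Aspn, which encodes asporin of the same proteoglycan family as Dcn and Lum, was listed at 0 in all 4 libraries.

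Of 9 fibroblast surface genes, 8 passed the filter in +NFD relative to +N, with 5 higher by 2-fold or more, 1 lower and a median of 1.44, and 3 of the 5 were below 1 FPKM in +N. The counts for +ND were 1 and 1 of 7, with a median of 0.88, which was 0.13 over all 9 genes without the filter. Those for +NF were 1 and 0 of 5, with a median of 0.05 that was -0.02 after upper-quartile scaling and -0.07 after centring. Cdh11, a cadherin gene of mesenchymal cells, was at 3.497 (+N), 10.1 (+ND), 3.64 (+NF) and 21 FPKM (+NFD). It had higher values with DBZ in both backgrounds, as did the markers Prrx1, Pdgfra, Pdgfrb, Twist1, Thy1, Lum and Vim. Cd34, a surface protein gene of fibroblasts, endothelium and epithelial stem cells, was at 94.3, 177, 217 and 272 FPKM. Nt5e, which encodes the ectoenzyme CD73, went the other way and was at 183, 9.04, 199 and 54.0 FPKM.

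Of 20 transcription factor genes of cranial and other mesenchyme, 19 were in the table and 11 passed the filter in +NFD relative to +N. Of these, 8 were higher by 2-fold or more and 0 lower, with a median of 1.12, and 3 of the 8 were below 1 FPKM in +N. Msx1 (log2 ratio 1.05), Dlx2 (1.07), Foxf2 and Prrx2 (both 1.12) were near the limit. Centring put these genes below it and gave a median of 0.94. For +ND the counts were 1 and 1 of 9, with a median of 0.54, and for +NF 0 of 7 differed 2-fold, with a median of -0.02. Without the filter the medians over the 19 genes were 0.85 in +NFD and 0.21 in +ND. Twist2, the close relative of Twist1, was at 0.744 (+N), 2.79 (+ND), 0.679 (+NF) and 6.17 FPKM (+NFD), and Prrx2, the relative of Prrx1, was at 18.0, 18.2, 17.7 and 40.2. Twist2 was thus above both values without DBZ in both media with it, which Twist1 was not, while Prrx2 stood out in +NFD alone. Runx2, which is required for bone and tooth formation, was at 56.0, 26.9, 56.2 and 58.0 FPKM. The genes for the ligands of the PDGF receptors were measured in the same libraries. Pdgfa was at 18.9 (+N), 20.1 (+ND), 23.9 (+NF) and 28.7 FPKM (+NFD), and Pdgfb was between 11.3 and 13.5 FPKM. Of the 4 ligand genes, 0 reached a 2-fold ratio in the media compared with +N. The median log2 ratio of the 3 that passed the filter was 0.31 in +NF and 0.57 in +NFD, and over all 4 genes it was 0.16 and 0.38. In +ND it was 0.08, and -0.03 after upper-quartile scaling and -0.02 after centring.

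**Figure D4:**
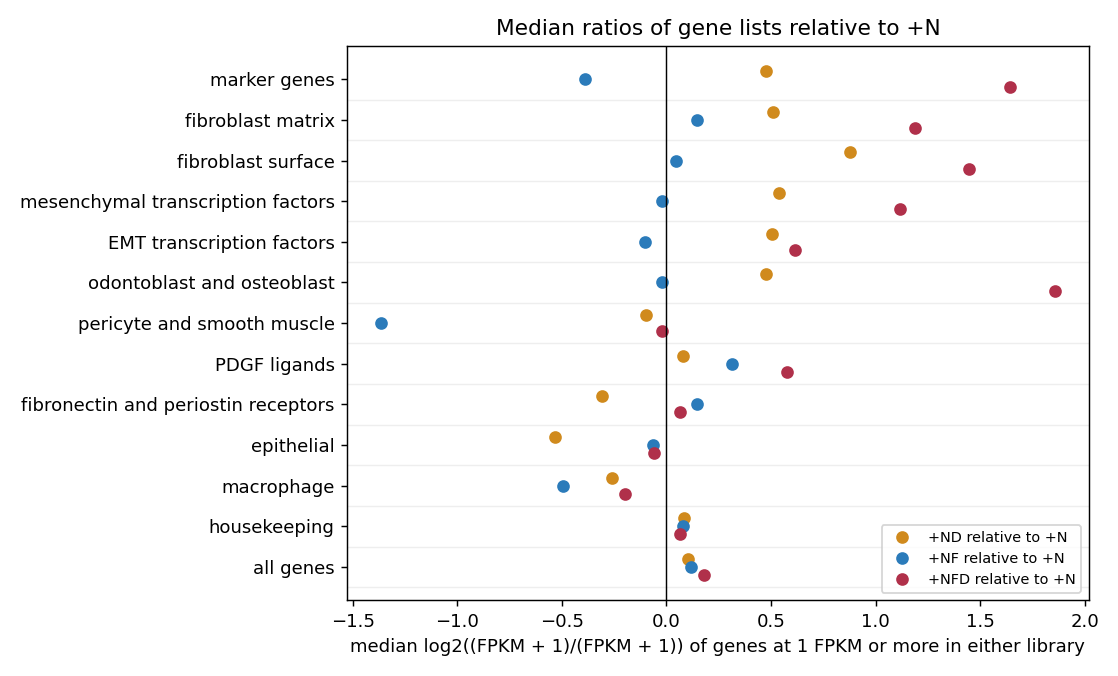
Median log2((FPKM + 1)/(FPKM + 1)) relative to the +N library, for the 10 marker genes, for the gene lists with at least 2 genes passing the filter and for all genes tested; genes that reached 1 FPKM in neither library of a pair are left out. The medians in +NFD are above 1 for the markers, the fibroblast matrix, fibroblast surface, mesenchymal transcription factor and odontoblast and osteoblast lists, and lie between -0.20 and 0.62 for the others.

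Genes of other cell types were measured beside the markers. All 10 epithelial genes of the list were above 1 FPKM in every library, and their summed FPKM was 20404 (+N), 11344 (+ND), 16016 (+NF) and 13393 (+NFD). Krt14 and Krt5, the keratin genes of basal epithelial cells, made up from 91.6% to 94.3% of it, and the other 8 genes summed to 1170 (+N), 830 (+ND), 1185 (+NF) and 1127 FPKM (+NFD). In +NFD relative to +N, 0 of them reached 2-fold in the upward direction and 2, Cdh1 and Krt14, in the downward one, and their median log2 ratio was -0.06. In +ND these counts were 1 and 3, with a median of -0.53, and in +NF 0 and 0, with a median of -0.06. After centring the medians of these genes were -0.24 in +NFD, -0.63 in +ND and -0.18 in +NF. The labelled epithelium was thus present by its markers in all 4 libraries, along with the mesenchymal markers.

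Macrophage genes were also detected, and 9 of 9 were above 0 in every library. Their summed FPKM was 712 (+N), 557 (+ND), 510 (+NF) and 439 (+NFD), of which Lyz2, the lysozyme gene of myeloid cells, made up from 65.7% to 74.2%. Without Lyz2 the other 8 summed to 183 (+N), 150 (+ND), 137 (+NF) and 150 FPKM (+NFD), so that both sums were highest in +N, but only the sum with Lyz2 was lowest in +NFD. In +NFD relative to +N, 0 of 8 reached 2-fold above and 1 below, and the median log2 ratio was -0.20. In +ND it was 0 and 1 of 9, with a median of -0.26, and in +NF 0 and 0 of 8, with a median of -0.49. None of the 8 endothelial genes reached 1 FPKM in any library (0 of 8), and Cldn5 was listed at 0 in all. Of 5 Schwann cell genes, Mbp alone reached 1 FPKM, at 3.14 to 5.29 FPKM, and Sox10 was listed at 0 in all libraries. Mbp was below +N in all 3 media, by log2 ratios of -0.05 in +ND, -0.60 in +NF and -0.48 in +NFD.

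Of 12 genes of pericytes and smooth muscle, 6 passed the filter in +NFD relative to +N, 2 of them, Mcam and Cspg4, reached 2-fold above and 0 below, and the median log2 ratio was -0.02. Cspg4 passed the filter through +NFD, being at 0.312 FPKM in +N and 2.30 in +NFD. In +ND 0 of 6 were higher and 1 lower, with a median of -0.10. Over all 12 genes without the filter these medians were 0.05 in +NFD and 0.0040 in +ND, and after centring both were -0.20. In +NF 1 of 5 was higher and 3 were lower, with a median of -1.37. Over all 12 genes without the filter, 6 were higher and 6 lower in +NF, with a median of -0.01. Acta2, which encodes smooth muscle actin, was at 17.5 (+N), 13.2 (+ND), 5.52 (+NF) and 10.99 FPKM (+NFD), and Tagln at 10.0, 9.64, 3.10 and 8.07. Both were lowest in +NF, as Lum, Vim and Postn were, but they were highest in +N. Myh11, the smooth muscle myosin gene, was at most 0.115 FPKM. The summed FPKM of this list was between 50.5 in +ND and 68.3 in +NF. Of 8 housekeeping genes 0 reached 2-fold, and their median log2 ratios relative to +N, which were 0.08 in +ND and in +NF and 0.06 in +NFD, became -0.02, -0.04 and -0.11 after centring. The part of any of these cell types in the values of the mesenchymal markers was not tested.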

How the data were processed

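RNA-seq values of organoids from the 4 media were used, with 1 library each. Per the labels and methods, the authors prepared TruSeq libraries, used FastQC 0.11.9 for read quality and Trim Galore 0.6.5 for trimming, then TopHat2 2.1.1 for alignment (GRCm38), and deposited FPKM estimated with Cufflinks. The annotation release, strand setting and Cufflinks options are not given in the sources used here. The methods text prints the DBZ dose in mmol per litre. Without a known strand setting, fragments of overlapping antisense genes can be shared.

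Entries with the same symbol were summed (123 symbols of 47493 entries). The study's fold threshold of 2 was used, while its DEGseq test was not, since FPKM are not counts and each medium has 1 library. Ratios used a pseudocount of 1. Fragments were approximated as FPKM times the longest GENCODE M21 transcript, divided by the value of 1 fragment, found from 8367 genes with a single transcript of at least 1000 nt. Where shorter transcripts prevail, this overstates the fragments, and intervals are too narrow. Intervals of fold are exact binomial, those of FPKM exact Poisson and those of log2 ratios approximate.

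The marker genes and the 13 other lists (133 genes) were chosen with earlier results of these data known, so their counts are descriptions. Named genes were all markers, genes of the lists, the 5 nearest profiles and genes that share exon positions with a marker. The list genes Foxf1 and Foxc2 were not analysed here. As alternatives, the pseudocount was set to 0.1 or left out, the filter was left out or raised to 5 FPKM, values were scaled to the upper quartile, ratios were centred on the median of all genes, and the highest entry per symbol was kept. The 2-fold calls and the estimate of the value of 1 fragment were tested on simulated data, and the other computations were not. The software was Python 3.11.15 with scipy 1.17.1, numpy 2.4.6 and pandas 2.3.3, and figures were drawn with matplotlib 3.10.9.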

Additional observations from a re-analysis of the deposited data

Results flagged for a closer look

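For 6 markers the log2 ratio with FGF10 had opposite signs without DBZ (+NF relative to +N) and with it (+NFD relative to +ND), with counting intervals that exclude 0 on both sides. The difference between the ratios was 2.59 for Lum, 2.00 for Vim, 1.73 for Postn, 1.28 for Fn1, 1.23 for Pdgfrb and 0.61 for Dcn. For Dcn the ratio of +NFD to +ND was 0.222, with an interval of 0.086 to 0.358. This interval includes the median of all genes, 0.094, so that on centring it no longer excludes 0. Fn1 and Postn also had opposite signs with DBZ without and with FGF10, by the same differences of 1.28 and 1.73. For Postn the ratio with DBZ alone was only -0.05. With 1 library per medium these differences were not tested against the variation between cultures.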

How the results depend on the processing

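No paired analysis was possible because each medium has 1 library, and for the same reason no replicate could be left out. With a pseudocount of 0.1, and likewise without one, 4 markers reached a 2-fold ratio above +N in +ND, and 1 did in +NF. The shares of all genes at these 2 settings were not counted. The median log2 ratio of the markers in +NFD was then 1.95 and 1.96 relative to +N, and 2.13 and 2.14 relative to +NF. With a filter at an FPKM of 5 the median was 0.10 in +ND and -0.58 in +NF relative to +N, and 2.16 in +NFD relative to +NF, over fewer markers. In +ND relative to +N it was 0.36 without a filter and 0.37 with upper-quartile scaling. Centring gave a median of 1.46 in +NFD relative to +N, and left 3 markers at least 2-fold higher in +NFD than in +ND. The other 2-fold counts of the markers in the 5 comparisons stayed within 1.5 times. Their other medians stayed within the counting error of the middle markers, and the highest entry per symbol changed none of these counts and medians. Counts of the other lists, of the highest or lowest library and of differences between ratios were not covered. Of the ratios of single markers that passed the filter, 2 changed sign, both on centring: Dcn in +NFD (-0.03) and Prrx1 in +NF (-0.05), relative to +N. Twist1 in +ND, which failed the filter, also did so, from 0.07 to -0.03. Upper-quartile scaling moved the median of all genes from 0.10 to -0.0028 in +ND. Low FPKM of Thy1 and Twist1 rest on few fragments, which limits their folds.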

Other observations

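Genes of mineralising mesenchymal cells were measured in the same libraries. Dmp1, which encodes an acidic matrix protein of odontoblasts and osteocytes, was at 6.37 (+N), 9.27 (+ND), 7.56 (+NF) and 28.0 FPKM (+NFD). Sp7, the osteoblast transcription factor osterix, was at 1.63, 1.97, 1.60 and 8.54 FPKM, and Ibsp, which encodes bone sialoprotein, at 37.7, 60.5, 34.4 and 68.6. Of the 6 genes of this list, 3 passed the filter in the comparisons with +N. In +NFD 2 of them reached 2-fold, and the median log2 ratio was 1.86, or 0.59 over all 6 genes without the filter. In +ND and +NF 0 reached 2-fold, with medians of 0.48 and -0.02, which were 0.16 over all 6 genes in +ND and -0.14 after centring in +NF. Dspp, the defining gene of odontoblasts, was listed at 0 in 3 libraries and at 0.0162 FPKM in +NFD, and Bglap, which encodes osteocalcin, was listed at 0 in the same 3 and at 0.255 FPKM in +NFD. Phex, which encodes an endopeptidase of osteoblasts and odontoblasts, was highest in +ND, at 0.123 FPKM, and at 0.0253 in +NFD.

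Of 4 transcription factors of epithelial-mesenchymal transition in the table, Snai1 was at 0.454 (+N), 1.06 (+ND), 0.497 (+NF) and 4.92 FPKM (+NFD). Snai2, which basal keratinocytes also express, was highest in +ND, where it was at 64.7 FPKM, beside 28.5 in +N, 32.1 in +NF and 33.8 in +NFD. In +NFD relative to +N, 1 of the 4, Snai1, reached 2-fold, and the median log2 ratio was 0.62. Snai1 and Zeb1 were below 1 FPKM in +N and passed the filter through +NFD. In +ND the count was 1 of 3, Snai2, with a median of 0.51 that was 0.41 over all 4 genes without the filter. Snai1, the middle gene of the 3, passed through +ND alone. In +NF the count was 0 of 2, with a median of -0.10 that was 0.10 over all 4 genes without the filter.

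Of 9 genes for integrin chains that bind fibronectin or periostin, 6 passed the filter, and in +NFD relative to +N 0 reached 2-fold above and 1, Itgb3, below. The median log2 ratio was 0.07, and -0.04 after upper-quartile scaling and -0.11 after centring. Itga4 and Itga8, which failed the filter, were highest in +NFD, at 0.570 and 0.566 FPKM. Itgb3 was at 4.86 (+N), 1.24 (+ND), 2.44 (+NF) and 1.19 FPKM (+NFD), and Itga5, a chain of the fibronectin receptor, was between 12.8 and 14.3. In +ND the counts were 0 and 1, with a median of -0.31, or -0.07 over all 9 genes without the filter. In +NF they were 0 and 0, with a median of 0.15, or 0.07 over all 9 genes and 0.03 after centring.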
